A study of Mus musculus with 5 samples.

Results

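A mammary tumor was compared with carcinogen-exposed mammary glands of the same genotype by droplet sequencing of single cells, which counts the 3' ends of transcripts as unique molecular identifiers (UMIs). The comparison rests on 3 of the 5 libraries of the study: 1 tumor library and 2 gland libraries. Cell barcodes with at least 300 detected genes and at most 20% of UMIs from mitochondrial genes were used, which left 16725 of the 33551 cells that pass this rule in all 5 libraries. They were 2290 tumor cells and 7475 and 6960 cells of gland replicates 1 and 2. Every mouse in the comparison carried Krt14cre with Brca1 wt/flox and Trp53 flox/flox, here called BPK. The glands had received 12 intraductal injections of 4NQO (4-nitroquinoline 1-oxide, a chemical that forms bulky DNA adducts), and the tumor arose after 24. Tumor state, number of injections and animal cannot be told apart here, because there is 1 tumor. The model fitted across libraries also held 1 library of BPK glands given 12 injections of vehicle (PBS/PEG) and 1 of PK glands (Brca1 wt/wt, otherwise the same alleles) given 12 injections of 4NQO. The labels do not say whether the 2 gland libraries came from separate animals, so the spread between them may be partly technical.

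The mammary epithelium consists of an inner luminal layer, with milk-producing alveolar cells and hormone-sensing cells that carry the estrogen and progesterone receptors, and an outer basal layer that expresses Krt14 and contracts. Cre recombinase driven by the Krt14 promoter acts in cells that express Krt14 or descend from such cells. Loss of p53 removes a brake on cell division after DNA damage, and BRCA1 acts in repair of DNA breaks by homologous recombination. Squamous differentiation, in which cells take on features of the epidermis such as stress keratins and the proteins of the cornified envelope, is a known pattern in some mouse mammary tumors.

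Cells were assigned to classes by marker gates, and UMIs were summed per library and class. The 3 libraries held 46938491, 27383717 and 58754764 UMIs (replicate 1, replicate 2, tumor), with 4295, 2591 and 19533.5 UMIs in the median kept cell. The mitochondrial limit removed 12.92% of tumor barcodes, against 1.83% and 1.74% in the glands. Replicate 1 and the tumor shared 29 cell barcodes, whereas replicate 2 shared 1 with each of them. The reason was not tested. Brca1 reached 1.05 and 5.14 CPM (UMIs scaled to a common library total) in the glands and 2.21 in the tumor. Trp53 reached 45.1 and 27.3 CPM in the glands and 14.2 in the tumor, and in the epithelial gate 44.2 and 18.8 CPM against 8.04 (adjusted p = 0.14). The labels do not state which exons the floxed alleles lose, and 3' tags outside them check nothing about recombination.

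Sequence context is given first for the protease list, since 10 of its members were higher in tumor epithelium. The list holds metalloproteinases and the plasminogen system, with inhibitors (Timp1, Serpinb2) and a receptor (Plaur) besides proteases. AP-1, a dimer of FOS and JUN proteins, is the classic regulator of several of these genes. The motif TGANTCA, which reads the same way on the opposite strand, was searched in the 200 bases before each annotated start in RefSeq's promoter table (GRCm38.p6). Of the 10 genes 7 matched the table, and 6 of these held the motif, against 6.361% of 27025 genes. Timp1 was the matched gene with no match in its window. Windows of 4 of them are printed 5' to 3' with the motif in capitals, its first base 46, 63, 35 and 69 bases before the start of Mmp3, Mmp10, Mmp13 and Plaur. A match is a run of letters and not a measured binding site. Mmp3, Mmp10, Mmp12 and Mmp13 lie close together on chr9, so they may not count as independent genes beside the share of all genes. Mmp12 had 0 matches in the window 7344197 to 7344396 and 1 match before a later annotated start (window 7347174 to 7347373).
Mmp3, chr9:7445622-7445821, plus strand: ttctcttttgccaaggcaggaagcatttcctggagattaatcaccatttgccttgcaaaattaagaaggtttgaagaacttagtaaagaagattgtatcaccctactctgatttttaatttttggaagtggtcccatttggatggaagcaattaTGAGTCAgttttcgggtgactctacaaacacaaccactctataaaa
Mmp10, chr9:7502142-7502341, plus strand: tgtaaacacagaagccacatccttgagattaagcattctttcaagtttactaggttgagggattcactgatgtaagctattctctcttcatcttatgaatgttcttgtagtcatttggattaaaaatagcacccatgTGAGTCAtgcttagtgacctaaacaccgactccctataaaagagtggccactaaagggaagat
Mmp13, chr9:7272314-7272513, plus strand: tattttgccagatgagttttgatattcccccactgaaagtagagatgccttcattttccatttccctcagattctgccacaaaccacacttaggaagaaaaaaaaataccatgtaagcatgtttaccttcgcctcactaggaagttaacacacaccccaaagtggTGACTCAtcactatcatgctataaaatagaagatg
Plaur, chr7:24462283-24462482, plus strand: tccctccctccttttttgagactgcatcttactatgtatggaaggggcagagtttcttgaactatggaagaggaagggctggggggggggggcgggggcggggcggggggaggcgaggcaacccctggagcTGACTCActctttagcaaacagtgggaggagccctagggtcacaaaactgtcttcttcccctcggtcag

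The tumor held many keratinocyte-like cells and the glands few. The gate used Krtdap, Krt79, Lgals7, Sbsn, Krt10, Dmkn, Krt1 and Calml3, genes of stratified epidermis. These cells made up 45.9% of tumor cells (1050 cells, exact 95% interval 43.8% to 47.9%), and 0.722% (0.543% to 0.942%) and 0.675% (0.497% to 0.897%) of gland cells. All intervals here are Clopper-Pearson intervals and cover counting error only. The log2 ratio of the tumor share to the mean of the glands was 6.04, and with each gland alone it was 5.99 and 6.09. Cells were also thinned to 1000 UMIs to equal depth, which left out 63 tumor cells and 520 and 1261 gland cells under that depth. The shares were then 29.5% in the tumor, and 0.359% and 0.491% in the glands. With 1 library against 2 no exact test can reach 0.05, so the shares carry no p-value.

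The marker genes of the gate differed among themselves. Lgals7, a galectin of stratified epithelia, was present in 99.9% of the gated tumor cells and in 100% of the gated cells of both glands. Krtdap, a secreted product of differentiating keratinocytes, was detected in 94.95% of the gated tumor cells and in 31.5% and 23.4% of the gated gland cells. The median depth of these cells was 36700 UMIs in the tumor and 8528 and 4609 in the glands, so the detection rates are not at equal depth. Krt10, a keratin of suprabasal epidermis, was at 16.7 CPM in the tumor, and at 32.2 and 2201 CPM in the glands. Krt1, its partner, was at 7.73 CPM in the tumor against 0 and 1596 CPM. The CPM of Krt1 and Krt10 was thus high in replicate 2 alone. Krt1 was detected in 0% of gated cells in replicate 1, 12.8% of the 47 in replicate 2 and 2% in the tumor. Krt10 was detected in 25.9%, 23.4% and 41.7% (replicate 1, replicate 2, tumor). The CPM difference therefore rests on a minority of the gated cells of replicate 2 and does not describe the whole gate.

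Glandular classes took smaller shares in the tumor than in both glands. Cells of the basal gate were 0.961% of tumor cells, and 11.0% and 7.47% of gland cells. That gate used Acta2, Myh11, Mylk, Cnn1, Oxtr and Trp63, and left out Krt5 and Krt14. Krt14 in the epithelial gate was at 453 and 650 CPM in the glands and at 14082 CPM in the tumor. A small basal share here therefore does not mean few cells with Krt14. Alveolar luminal cells were 2.05% against 16.2% and 7.77%, and hormone-sensing luminal cells 5.63% against 21.9% and 9.67%. T cells were 0.568% of tumor cells, below 1.90% and 5.95% in the glands. Neutrophils numbered 44 in the tumor, 0 in replicate 1 (0 of 7475 cells, which allows a share of up to 0.0401%) and 2 in replicate 2. Macrophage shares did not separate the groups, at 5.59% in the tumor and 1.87% and 8.75% in the glands. The same held for fibroblasts (11.6%, and 6.15% and 17.8%), while endothelial cells at 6.94% lay just under the lower gland value of 7.11%. A share can fall because another class grows, so these values are relative.

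**Figure D1:**
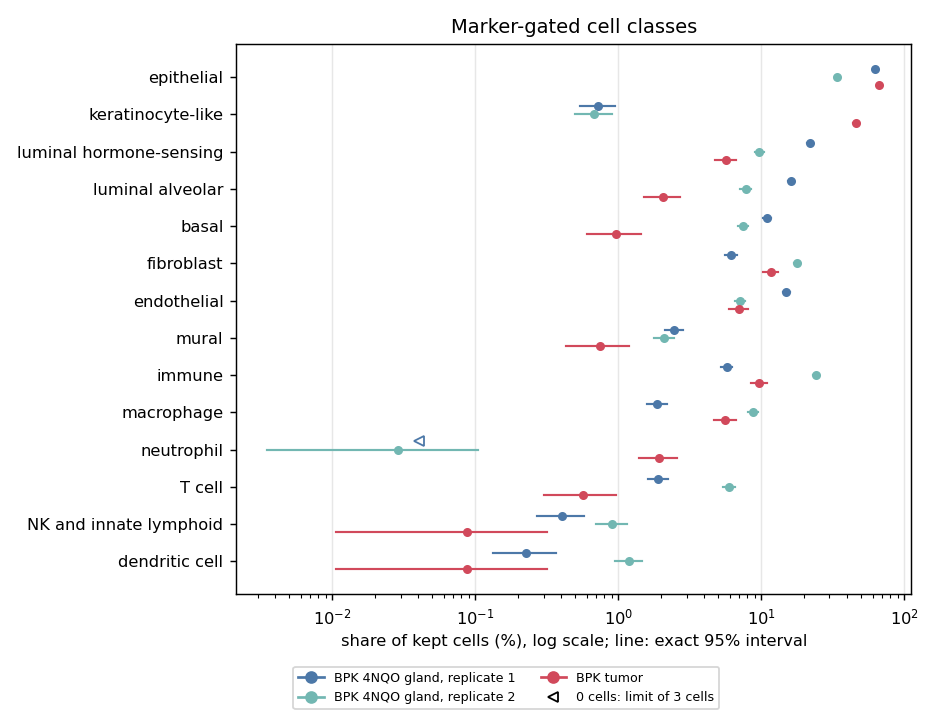
Share of kept cells in each marker-gated class (horizontal axis, percent, log scale) for the 2 gland libraries and the tumor, with exact 95% intervals as lines. The tumor point for keratinocyte-like cells stands at 45.9%, and the gland points at 0.722% and 0.675%. Sub-classes are contained in the epithelial and immune classes.

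Whole-library sums showed both the shift in cells and changes within cells, and fewer cells of a type and less RNA per cell cannot be told apart there. By edgeR's quasi-likelihood test with Benjamini-Hochberg adjustment, 484 of 16871 genes were higher in the tumor (2.87%) and 323 were lower (1.91%) at adjusted p under 0.05. DESeq2 called 507 higher and 511 lower. Smpd3, which encodes a neutral sphingomyelinase, was at 2.35 and 146 CPM in the glands with 1 UMI in the tumor. Most of its gland UMIs lay in the fibroblast gate (93 of 110 in replicate 1 and 3724 of 3972 in replicate 2). The low tumor value in that gate, given below, is therefore not a separate observation. The median log2 fold change over all genes was -0.20, and medians of gene lists below are read beside the median of all genes in the same gate.

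The epithelial gate gave the most calls of the 8 contrasts. Of 15698 genes tested, 1244 were higher in the tumor (7.92%) and 1243 were lower (7.92%). Keratinocyte-like cells were 1050 of the 1522 tumor cells in the gate, against 54 of 4670 and 47 of 2349 in the glands, so this contrast compares mixtures of epithelial cells. The highest-ranked genes included members of the cornified envelope and of the prolactin family. Prl8a9, a member of a prolactin-related family known from the placenta (gene on chr13, 27557995 to 27564606, GENCODE M21), had 0 counts in both glands and 85.2 CPM in the tumor. That is at least 545-fold higher, taking 3 counts in each gland library as the floor (adjusted p = 1e-30). Lce3c, a late cornified envelope gene, also had 0 counts in both glands and reached 72.7 CPM, at least 465-fold higher.

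Cnfn, which encodes cornifelin, was at 0.104 and 0.157 CPM in the glands and at 78.2 CPM in the tumor (log2 fold change 9.73 ± 0.86 SE, adjusted p = 6.2e-26). Endou, a poly(U)-specific endonuclease, went from 0.156 and 0.391 CPM to 95.5 CPM. Sprr2d, a small proline-rich envelope precursor, had 0 and 1 counts in the glands and 1973 in the tumor. The rule that named these 3 genes required a tumor value above both glands. Tubb3, a tubulin best known from neurons, rose from 0.495 and 0.548 CPM to 113 CPM. Ppbp, a platelet chemokine, Ces2g, a carboxylesterase, Sprr2h, Klra4, a natural killer receptor gene, and Teddm3 completed the highest 12 together with Mmp13, with tumor levels from 41.8 to 178 CPM for these 5. DESeq2 did not call Teddm3.

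The 12 lowest-ranked genes included 4 milk genes. Csn2, beta-casein, was at 60.3 and 78.3 CPM in the glands and at 0.35 CPM in the tumor (log2 fold change -7.12 ± 1.13 SE, adjusted p = 2.8e-08). Csn1s2a, Btn1a1 and Muc15, products of milk and of the milk fat globule, fell by 7.50, 5.74 and 5.78 on the log2 scale. Of the milk list, 6 of 9 tested members fell and none rose, with a median of -5.74, where 7.92% of all genes fell. Igfbp5, which binds insulin-like growth factors, was at 1407 and 2297 CPM in the glands and at 35.9 CPM in the tumor. Fcgbp, a mucin-like secreted protein, had 547 and 554 CPM in the glands and 5.14 CPM in the tumor. The gland values of Fcgbp were close to each other and far above the tumor.

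Ccdc129, Clic6, Ctsr and Syn2 fell by 6.21, 5.10, 5.02 and 4.82 on the log2 scale. Retnla, a marker of alternatively activated macrophages, was at 4.22 and 74.5 CPM against 0.267 CPM in the epithelial gate. Its level in the macrophage gate was 1610 and 3289 CPM in the glands and 103 CPM in the tumor, and the part of macrophage RNA in the epithelial value was not tested. Lars2, a mitochondrial leucyl-tRNA synthetase, was at 13.3, 745 and 7.79 CPM (replicate 1, replicate 2, tumor). Without replicate 2 its log2 fold change was -0.45, against -4.93 with both, and DESeq2 did not call Lars2. In the macrophage gate Lars2 was likewise at 0, 1143 and 4.12 CPM.

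**Figure D2:**
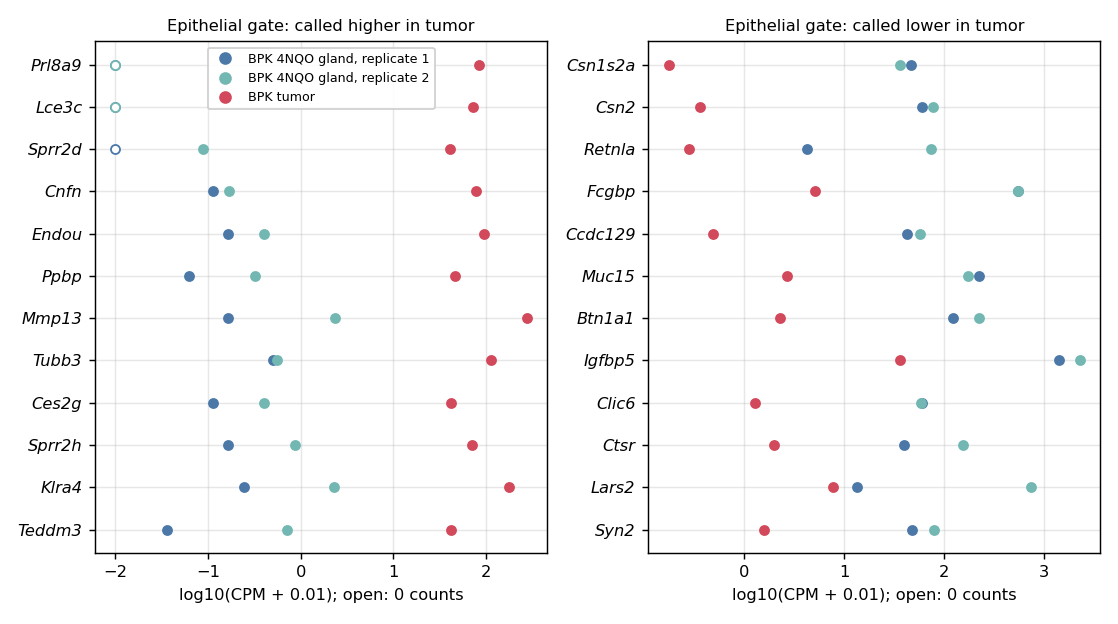
Levels of the 12 highest- and 12 lowest-ranked called genes in the epithelial gate, as log10(CPM + 0.01), with 1 point for each library and open points for 0 counts. The rule for naming genes required tumor points above both glands on the left and under both on the right, so that pattern is no finding. Lars2 is the gene whose replicate 1 value (13.3 CPM) lies nearest to the tumor value (7.79 CPM).

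Stress keratins and envelope genes rose as a group in the epithelial gate. Krt6a, induced in wounded and hyperproliferative epidermis, was at 33.3 and 83.1 CPM in the glands and at 3515 CPM in the tumor (log2 fold change 6.48 ± 1.14 SE, adjusted p = 9.1e-07). Its partner Krt16 went from 11.0 and 70.4 CPM to 1118 CPM. Tgm3, a transglutaminase that cross-links the envelope, and Sprr1b rose by 8.19 and 7.17 on the log2 scale. In total 14 of 19 members were higher and none lower, where 7.92% of all genes were higher, and the list's median was 3.87 beside -0.13 over all genes. DESeq2 called 9 of these 14, and Krt6b and Ivl were among the 5 it did not call.

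Genes of DNA replication and mitosis were also higher. Rrm2, a subunit of the enzyme that makes deoxyribonucleotides, was at 7.87 and 5.95 CPM in the glands and at 95.5 CPM in the tumor (log2 fold change 4.23 ± 0.67 SE, adjusted p = 2.95e-08). Ube2c and Birc5, which act in mitosis, rose by 3.62 and 3.61, and Bub1, a spindle checkpoint kinase, by 3.42. In all 15 of 20 members rose, with a median of 2.78, and DESeq2 called all 15. Mki67 was not called. It stood at 9.79 and 47.4 CPM in the glands and 28.2 CPM in the tumor, between the 2 glands. Cell cycle inhibitors moved as well. Cdkn2a, which encodes the brakes p16 and p19ARF, was at 16.8 and 33.8 CPM in the glands and 230 CPM in the tumor (log2 fold change 3.72 ± 0.76 SE, adjusted p = 3.3e-05). Cdkn2b rose by 3.17, and Rb1 fell by 3.10.

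Among p53 targets 4 of 19 members rose and none fell, where 7.92% of all genes rose. The members were split, with the tumor above both glands in 8 and below both in 9. Their median was 0.63 beside -0.13 over all genes. Perp, a desmosomal protein as well as a p53 target, was at 95.8 and 99.6 CPM in the glands and at 1457 CPM in the tumor. Pmaip1, a pro-apoptotic gene, Phlda3 and Aen rose by 3.35, 3.21 and 1.85. Cdkn1a, the classic p53 target p21, had 139 and 127 CPM in the glands and 360 CPM in the tumor and was not called (adjusted p = 0.117). Of NRF2 targets, which detoxify electrophiles, 4 of 18 rose against the same 7.92%: Akr1b8, Gpx2, Gstp1 and Gsta4, by between 4.01 and 5.29. The NRF2 list as a whole did not shift, with a median of -0.13 beside -0.13 over all genes. In 6 of its members the tumor lay above both glands and in 9 below both.

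Genes of hypoxia and glycolysis rose in 14 of 20 cases, where 7.92% of all genes rose. Their median was 2.61, and DESeq2 called all 14. Eno1, the glycolytic enolase, was at 73.2 and 74.5 CPM in the glands and at 1151 CPM in the tumor (log2 fold change 4.44 ± 0.95 SE). Pgk1, phosphoglycerate kinase, rose by 4.00, and Car9 and Car12, carbonic anhydrases known as hypoxia markers, by 3.65 and 3.61. Vegfa, the main angiogenic factor of the list, was at 24.1 and 69.3 CPM against 97.8 CPM and was not called (adjusted p = 0.0957).

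Adhesion and laminin genes rose in 12 of 20 cases and none fell, with a median of 2.28, where 7.92% of all genes rose. Tgfbi, a matrix adaptor protein, was at 1.07 and 7.91 CPM in the glands and at 328 CPM in the tumor (log2 fold change 6.85 ± 0.87 SE). Lamb3 and Lama3, laminin chains of the epithelial basement membrane, rose by 4.53 and 4.18. The integrins Itga5 and Itgb4 rose by 3.96 and 3.58. Of transcription factors tied to mesenchymal transition, Twist1 rose by 4.01 and Snai2 by 1.82, and DESeq2 did not call Snai2. Vim, the mesenchymal intermediate filament, was at 62.2 and 175 CPM in the glands and 79.8 CPM in the tumor, and Zeb1 was at 0.86 and 2.74 CPM against 0.802 CPM. Neither of these was called.

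Mammary lineage regulators fell in 9 of 18 cases and rose in 2, with a median of -2.03. Of all genes 7.92% fell and 7.92% rose. Elf5, the regulator of alveolar fate, was at 88.8 and 83.5 CPM in the glands and at 2.04 CPM in the tumor (log2 fold change -4.93 ± 1.02 SE). Kit, a receptor of luminal progenitors, and Hey1, a Notch target, fell by 5.53 and 4.70. The hormone receptors Pgr and Esr1 fell by 4.14 and 2.17, with Foxa1 and Gata3, which act beside them, at 3.13 and 3.25 lower. Trp63, the p63 regulator of stratified epithelium, rose from 7.58 and 16.7 CPM to 141 CPM. Elf5, Kit, Pgr, Esr1 and Foxa1 were markers of the luminal gates, whose shares were smaller in the tumor, and the part of those shares in these values was not tested. Trp63 was a marker of the basal gate, whose share was also smaller in the tumor.

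Matrix-degrading proteases rose in the epithelial gate. Mmp13, a collagenase, was at 0.156 and 2.35 CPM in the glands and at 276 CPM in the tumor (log2 fold change 8.56 ± 0.91 SE, adjusted p = 4.5e-18). Mmp9, a gelatinase, and Mmp10, a stromelysin, both rose by 7.56. Serpinb2, an inhibitor of plasminogen activators, was at 2.08 and 15.8 CPM against 1023 CPM. Plaur, the urokinase receptor, rose by 2.70 and Plau, its ligand urokinase, by 2.41. Altogether 10 of 17 members of the list rose and none fell, with a median of 2.49, and DESeq2 called 7 of the 10, without Mmp10, Mmp12 and Plau.

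Secreted signals followed. Il1a, an alarmin of keratinocytes, was at 0.469 and 1.49 CPM in the glands and at 96.5 CPM in the tumor (log2 fold change 7.27 ± 0.76 SE), and Il24, a cytokine of the IL-20 family, rose by 6.60. Of the neutrophil list 4 of 8 rose: Ppbp and Cxcl3, which are ligands of CXCR2, Csf2 and Cxcl5. That list had a median of 1.90, and 7.92% of all genes rose. Among EGFR ligands Epgn, Ereg, Tgfa and Hbegf rose, by 5.84, 5.52, 3.52 and 2.62. Epgn, epigen, was at 6.20 and 21.1 CPM in the glands and at 518 CPM in the tumor. The receptor gene Erbb4, expressed in differentiating alveolar cells, had 119 and 56 UMIs in the glands and 1 in the tumor, a ratio of 182 (counting interval 32.7 to 7189).

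Of the AP-1 and immediate early list 1 of 15 members rose, a share no larger than the 7.92% of all genes. That gene was Fosl1, the FRA1 subunit, at 43.6 and 116 CPM in the glands and at 310 CPM in the tumor (log2 fold change 2.52 ± 0.81 SE, adjusted p = 0.017). Fos was at 4185 and 2959 CPM against 718 CPM, and Jun at 2624 and 3112 CPM against 536 CPM. Neither was called, and the list's median was -1.43.

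Keratinocyte-like tumor cells were next compared with the few keratinocyte-like cells of the glands. This gate summed 38660564 UMIs in the tumor but only 496309 and 253093 in the glands, so small changes were not detectable. Of 6573 genes tested, 40 were higher (0.609%) and 75 lower (1.14%). DESeq2 called 71 genes in all. Stress keratins were already present in the gland cells of this gate. Krt6a was at 1271 and 1972 CPM in the glands and at 4039 CPM in the tumor, which did not pass the test (adjusted p = 0.83). Krt16 was at 397 and 1087 CPM against 1312 CPM. Of the stress keratin list 1 of 17 members rose, Cnfn, with 0 counts in both glands and 95.7 CPM in the tumor, at least 10.7-fold higher.

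None of 20 replication and mitosis genes was called in keratinocyte-like cells by edgeR or DESeq2, and 0 had an unadjusted p under 0.05. Birc5 was at 193 and 59.3 CPM in the glands and at 147 CPM in the tumor, and Top2a at 314 and 205 CPM against 104 CPM. The list's median was 0.00 beside -0.06 over all genes. The tests in the 2 gates share the same cells and libraries, and no test of the difference between them was run.

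Prl8a9 and Lce3c had 0 counts in both glands in this gate too, with 104 and 89.6 CPM in the tumor, at least 11.6-fold and 10.0-fold higher. Has3, a hyaluronan synthase, was at 0 in both glands and at 34.5 CPM, at least 3.86-fold higher, and DESeq2 did not call Has3. Mmp10 had 1 and 2 counts in the glands and 257 CPM in the tumor, a ratio of 64.2 (counting interval 22.0 to 311). Mmp13, at 8.06 and 27.7 CPM against 311 CPM, rose by 4.49. Of EGFR ligands 3 of 7 tested rose, with Epgn at 24.2 and 39.5 CPM against 570 CPM (log2 fold change 4.44 ± 0.95 SE, adjusted p = 0.00082). Areg, amphiregulin, was at 206 and 170 CPM against 1570 CPM, and Ereg rose by 3.05. Cdkn2a rose by 2.93 in this gate (adjusted p = 0.037), and DESeq2 called neither Cdkn2a nor Ereg.

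Interferon-response genes were lower in the keratinocyte-like cells of the tumor. Interferons bind surface receptors and switch on antiviral genes and, for interferon gamma, antigen presentation. Of 14 members of the type I interferon list that could be tested, 8 fell and none rose, against 1.14% of all genes lower, with a median of -3.42. Isg15, a ubiquitin-like modifier, was at 125 and 190 CPM in the glands and at 13.2 CPM in the tumor (log2 fold change -3.32 ± 0.99 SE, adjusted p = 0.0476). Cxcl10, a chemokine for T cells, stood at 66.5 and 802 CPM against 3.03 CPM. In all 14 genes the tumor lay under both glands. The count filter keeps a gene that reaches its limit in any single library. Members low in the tumor could thus enter through the glands alone, so the filter partly fixes this pattern and the median. DESeq2 called 4 of the 8, and without the filter on low counts 3 of the 8 were called.

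Of the 6 lowest-ranked genes of this gate, Cxcl9, Ubd, Iigp1 and Cxcl10 are known interferon-induced genes. Csn2 had 69 and 6 UMIs in the glands and 1 in the tumor, a ratio of 3146 (counting interval 565 to 124250). Cxcl9, a chemokine induced by interferon gamma, was at 74.5 and 589 CPM in the glands and at 0.724 CPM in the tumor (log2 fold change -8.54 ± 1.41 SE, adjusted p = 1.2e-06). Ubd, the ubiquitin-like FAT10, was at 88.7 and 47.4 CPM against 0.103 CPM. Iigp1, an immunity-related GTPase, was at 179 and 304 CPM against 0.75 CPM. These 3 genes rest on 37 and 149, 44 and 12, and 89 and 77 UMIs in the glands. Clca3a2, a chloride channel accessory gene, fell by 5.81. Of MHC class II genes 2 of 5 fell, Cd74 and H2-Aa, and without the count filter neither was called. Cd74 was at 657 and 190 CPM against 25.1 CPM. The macrophage gates held 7764, 32104 and 17022 UMIs of Cd74 (replicate 1, replicate 2, tumor). These are raw counts, out of 478980, 2606188 and 971621 UMIs in those gates.

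Interferon-stimulated genes are known to carry a response element to which IRF factors bind. The motif, GAAA, any 2 bases and GAAA again, was searched on both strands in the same 200-base windows. Of the 8 lower genes 5 were in the promoter table, and 1 held the motif, against 2.649% of 27025 genes. That gene was Isg15, with 3 overlapping matches that begin 78, 72 and 66 bases before its start (GRCm38.p6, capitals).
Isg15, chr4:156200819-156201018, minus strand: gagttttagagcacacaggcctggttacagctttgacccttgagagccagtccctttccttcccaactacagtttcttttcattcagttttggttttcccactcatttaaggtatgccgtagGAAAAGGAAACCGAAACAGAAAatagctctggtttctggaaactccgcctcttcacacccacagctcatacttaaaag

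Interferon-induced genes were also measured in the other gates. Cxcl9 was at 389 and 357 CPM in gland fibroblasts and 4.55 CPM in tumor fibroblasts, and at 308 and 699 CPM against 6.19 CPM in endothelial cells. Of the type I list 5 of 19 members fell in fibroblasts (Rsad2, Ifit2, Cxcl10, Ifih1 and Ifit3), and 8 of 20 in the epithelial gate. In endothelial cells none of 19 was called by edgeR or DESeq2, with 4 at an unadjusted p under 0.05. Of all genes 1.33% were lower in fibroblasts and 7.92% in the epithelial gate. DESeq2 called 1 of the 5 in fibroblasts, Cxcl10, and without the count filter 2 were called, Rsad2 and Ifit2. Hormone-sensing cells went the other way in 1 gene, Oas1a, at 1.33 and 2.76 CPM against 22.9 CPM, and there the list's median was 1.32. Oas1a was not called with DESeq2 or with the stricter gate. Isg15 in those cells was at 34.8 and 65.5 CPM in the glands and at 169 CPM in the tumor, without passing the test. T cells, a source of interferon gamma, were 0.568% of tumor cells against 1.90% and 5.95%, and their part in these levels was not tested.

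**Figure D3:**
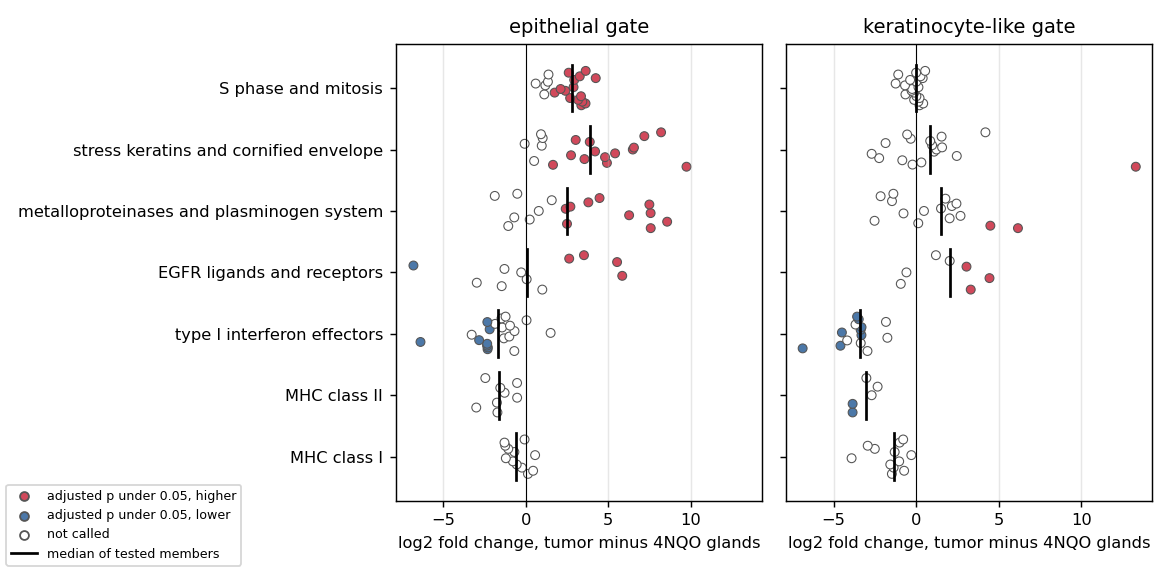
Log2 fold changes (tumor minus glands, horizontal axis) of single genes in 7 lists, in the epithelial gate and in the keratinocyte-like gate. Red and blue points passed the test, open points did not, and black bars are medians of the tested members. Replication genes have a median of 2.78 in the left panel and 0.00 in the right panel, and interferon genes of -1.67 and -3.42.

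Protease genes were also higher in the luminal cells of the tumor. Mmp13 had 0 counts in hormone-sensing cells of both glands and 73.1 CPM in the tumor, at least 136-fold higher. In alveolar cells it had 0 and 1 counts in the glands and 62 in the tumor, a ratio of 1194 (counting interval 214 to 47162). Mmp13 in the whole tumor epithelium was at 276 CPM. Of the protease list 7 of 16 members rose in hormone-sensing cells and 8 of 16 in alveolar cells, and DESeq2 called 5 in each. Over all genes 120 of 12237 were higher (0.981%) and 32 lower (0.262%) in hormone-sensing cells, and 145 of 13306 (1.09%) and 36 (0.271%) in alveolar cells. DESeq2 called 75 higher and 7 lower in hormone-sensing cells. The tumor gates held only 129 hormone-sensing and 47 alveolar cells.

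In hormone-sensing cells 5 of 20 replication genes rose, with Cdk1, the mitotic kinase, at 4.90 and 6.91 CPM in the glands and 54.2 CPM in the tumor. With a stricter gate 1 of these 5, Ccnb1, was still called. In alveolar cells edgeR and DESeq2 called none of 20, with 2 at an unadjusted p under 0.05. Serpinb2 rose by 6.35 in hormone-sensing cells, from 0.831 and 0.552 CPM to 58.7 CPM, against 1023 CPM in tumor epithelium. Ffar4, a fatty acid receptor, and Il17b, a cytokine, rose by 5.75 and 5.45, and Crabp1, which binds retinoic acid, by 4.76. Lower genes were Fcgbp, Igfbp5, Wfdc12 and Gdpd3, besides Retnla and Lars2, for which DESeq2 made no call. Igfbp5 and Gdpd3 were not called with the stricter gate.

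In alveolar cells of the tumor, Nppc, a natriuretic peptide gene, Aqp3, a water and glycerol channel of basal keratinocytes, Cxcl3 and Clec4n, a myeloid lectin, were among the 6 highest, with H19, an imprinted noncoding RNA. Cxcl3 was at 0.335 and 2.19 CPM against 76.3 CPM. Boc, a hedgehog co-receptor, fell by 4.08, Cbr2 by 3.54, and Csn1s2a by 3.72. Per1, Wnk2 and Amtn fell as well, and these 3 with H19 and Nppc were not called by DESeq2. Csf3, the neutrophil growth factor G-CSF, rose by 3.08 there, with 43.5 and 637 CPM in the glands and 2510 CPM in the tumor, and DESeq2 did not call Csf3.

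Krt14 and Krt6a RNA was present at a low level in the other tumor classes. Krt14 had a UMI in 99.6% of tumor cells in the fibroblast gate, against 6.52% and 4.92% in gland fibroblasts, and the median depth was 14980 UMIs against 2742 and 3630. With cells thinned to 1000 UMIs the shares were 53.4%, 2.63% and 1.30%. Krt14 in fibroblasts, endothelial cells, macrophages and T cells of the tumor stood at 6.91%, 4.92%, 5.73% and 5.79% of its CPM in tumor epithelium, and Krt6a at 5.69%, 4.02%, 5.71% and 4.64%. In hormone-sensing and alveolar cells of the tumor Krt14 stood at 5.30% and 5.21% of that CPM, and Krt6a at 19.8% and 5.83%. The part of keratinocyte-like RNA in the luminal and stromal results was not tested.

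Tumor fibroblasts had 147 of 11212 genes higher (1.31%) and 149 lower (1.33%) than gland fibroblasts, and DESeq2 called 103 in all. Krt6a, Krt16, Aqp3 and Epgn were among the 6 highest. Krt16 reached 8.64% of its epithelial CPM, and 33 of the 147 genes were at or under that share, whereas 68 were at or above the epithelial level. Il11, a cytokine known from fibrosis, belonged to the latter, at 35.0 and 18.3 CPM in the glands and at 541 CPM in tumor fibroblasts (log2 fold change 4.57 ± 0.90 SE, adjusted p = 8.4e-05), against 17.3 CPM in tumor epithelium. Inhba, a subunit of activin A, was at 44.0 and 84.6 CPM against 736 CPM, and at 133 CPM in tumor epithelium. These 2 were the called genes of the activated matrix list of 20, in which 19 members had a positive value and the median was 1.29 beside -0.10 over all genes. Tnc, tenascin, at 144 and 257 CPM against 1256 CPM, was not called (adjusted p = 0.082).

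Fibroblasts of the tumor held more Mmp10 and Mmp13 than its epithelium. Mmp13 was at 0 and 28.02 CPM in gland fibroblasts and at 766 CPM in the tumor, 2.77 times its level in tumor epithelium, and Mmp10 at 1.81 and 12.4 CPM against 443 CPM. DESeq2 called neither, nor Mmp9, which left Plaur of the 4 members of the protease list that edgeR called. Spp1, osteopontin, was at 112 and 93.6 CPM against 1333 CPM (log2 fold change 3.93 ± 1.01 SE, adjusted p = 0.0077), and at 189 CPM in tumor epithelium. Mcpt8, a protease gene known from basophils, had 0 and 2 counts in gland fibroblasts and 260 in the tumor, a ratio of 203 (counting interval 56.3 to 1680). Gzme, a granzyme, had 0 and 3 counts against 236, a ratio of 123 (42.1 to 597). In tumor epithelium Mcpt8 was at 0.74 CPM and Gzme at 0.863 CPM.

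Lower in tumor fibroblasts were Smpd3, Cxcl13, a B cell chemokine, Hoxc10, a homeobox gene, and Inmt, a methyltransferase, each with 0 counts in the tumor. Smpd3 was at 56.1 and 669 CPM in the glands, and the tumor was at least 558-fold lower. Hoxc10 was at 47.6 and 26.2 CPM and at least 56.8-fold lower. Cxcl13, at 177 and 16.7 CPM, was not called by DESeq2. Pgr fell as well, with 7.84 and 43.5 CPM in the glands and 0 in the tumor, at least 39.5-fold lower, and Esr1 was at 19.3 and 37.5 CPM against 2.82 CPM, a call that DESeq2 did not make.

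Endothelial cells had 197 of 10824 genes higher (1.82%) and 256 lower (2.37%), and DESeq2 called 165 in all. Igfbp3, which binds insulin-like growth factors, was the most abundant of the highest 6, at 43.1 and 29.4 CPM in the glands and at 2683 CPM in the tumor (log2 fold change 6.31 ± 0.99 SE, adjusted p = 1.8e-07), against 371 CPM in tumor epithelium. Of the tip cell and angiogenesis list, genes of the leading cells of vessel sprouts, 7 of 18 rose and none fell. Kcne3, a potassium channel subunit of tip cells, was at 5.08 and 4.90 CPM against 242 CPM, and at 0.905 CPM in tumor epithelium. Esm1, endocan, was at 17.6 and 35.7 CPM against 246 CPM, while in the epithelial gate it was at 15.3 and 9.79 CPM against 0.863 CPM. Cxcr4, Mcam, Nid2, Vwa1 and Lxn rose by between 2.26 and 2.68, and DESeq2 called 5 of the 7, without Cxcr4 and Lxn. Without the count filter none of these 5 genes was called, which left Kcne3 and Esm1.

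Replication genes rose in 7 of 20 cases in tumor endothelium, with Birc5 at 8.67 and 12.6 CPM against 105 CPM, and at 129 CPM in tumor epithelium. DESeq2 called 2 of these 7, and 3 were called without the count filter. Cell cycle inhibitors split. Cdkn2b had 2 and 0 counts in the glands and 81 in the tumor, a ratio of 99.7 (counting interval 27.6 to 824), with 32.7 CPM in tumor epithelium, whereas Cdkn1c, p57, was at 508 and 124 CPM against 22.2 CPM. Cdkn2a had 1 and 2 counts in the glands and 68 in the tumor, a ratio of 55.8 (19.1 to 271), and was at 230 CPM in tumor epithelium. Il1b rose by 4.86, from 1.79 and 9.11 CPM to 128 CPM, and stood at 5564 CPM in tumor macrophages. Cd274, the checkpoint ligand PD-L1, was at 32.6 and 52.5 CPM against 4.13 CPM and was not called by DESeq2.

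Lower genes in endothelium included Ubd, Cxcl9, Retnla and Tmem182, and the adipocyte products Cfd and Car3. Cfd, adipsin, was at 273 and 25.2 CPM in the glands with 0 counts in the tumor, at least 96.4-fold lower. The adipocyte markers Adipoq and Cidec were at 22.4 and 24.8 CPM in the endothelial gate of replicate 1, at 3.50 CPM each in replicate 2 and at 0 in the tumor, and Plin1 and Lep were at 0 in the tumor. The part of adipocyte RNA in the fall of Cfd and Car3 was not tested. Egr1, an immediate-early gene, fell by 3.88 and the heat shock gene Hspa1b by 3.76.

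**Figure D4:**
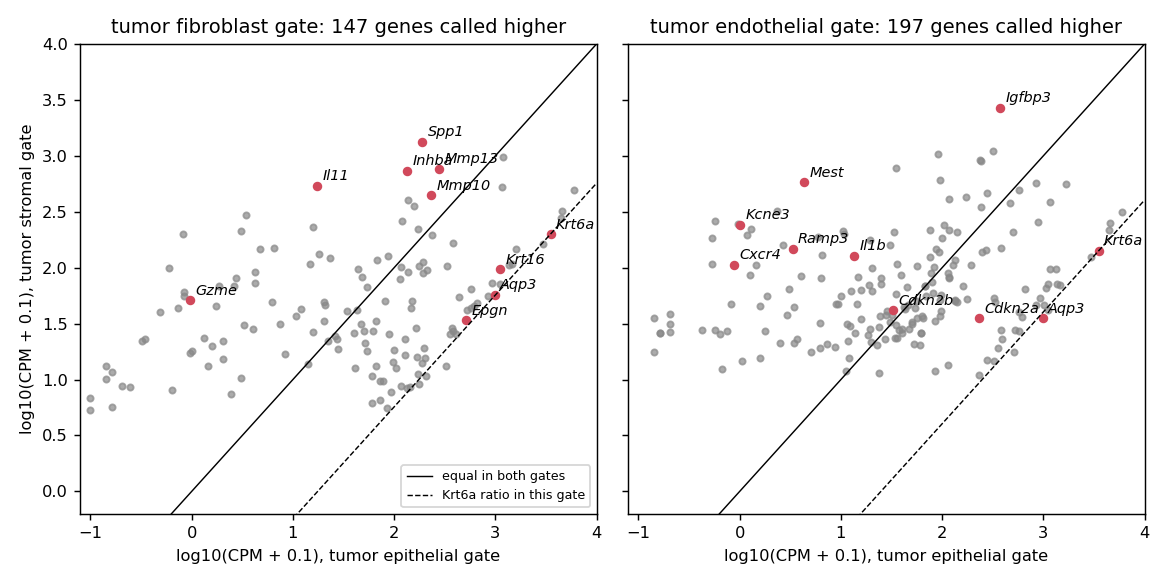
Genes called higher in tumor fibroblasts (147) and tumor endothelial cells (197), with their level in tumor epithelium on the horizontal axis and in the stromal gate on the vertical axis, both as log10(CPM + 0.1). The solid line marks equal levels and the dashed line the ratio of Krt6a in that gate, 5.69% and 4.02%. Il11, Spp1, Igfbp3 and Kcne3 lie above the solid line, and Krt6a, Aqp3 and Epgn near the dashed one.

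Macrophages gave the fewest calls, with 18 of 6689 genes higher (0.269%) and none lower (0%) by edgeR, where 174 genes had an unadjusted p under 0.05. DESeq2 called 8 higher and 6 lower. Of the 18 genes, 13 were under the epithelial level in the tumor. Krt6a, Krt16, Sprr1b, Lypd3 and Klk8, all genes of stratified epithelium, made up 5 of the 6 named by rank. Tnfrsf9, the co-stimulatory receptor 4-1BB, was at 2.09 and 2.30 CPM against 89.5 CPM (log2 fold change 5.46 ± 1.19 SE, adjusted p = 0.0056), and DESeq2 did not call it. Mmp13 was at 6.26 and 25.3 CPM against 433 CPM, above the 276 CPM of tumor epithelium, and was not called with the stricter gate.

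**Figure D5:**
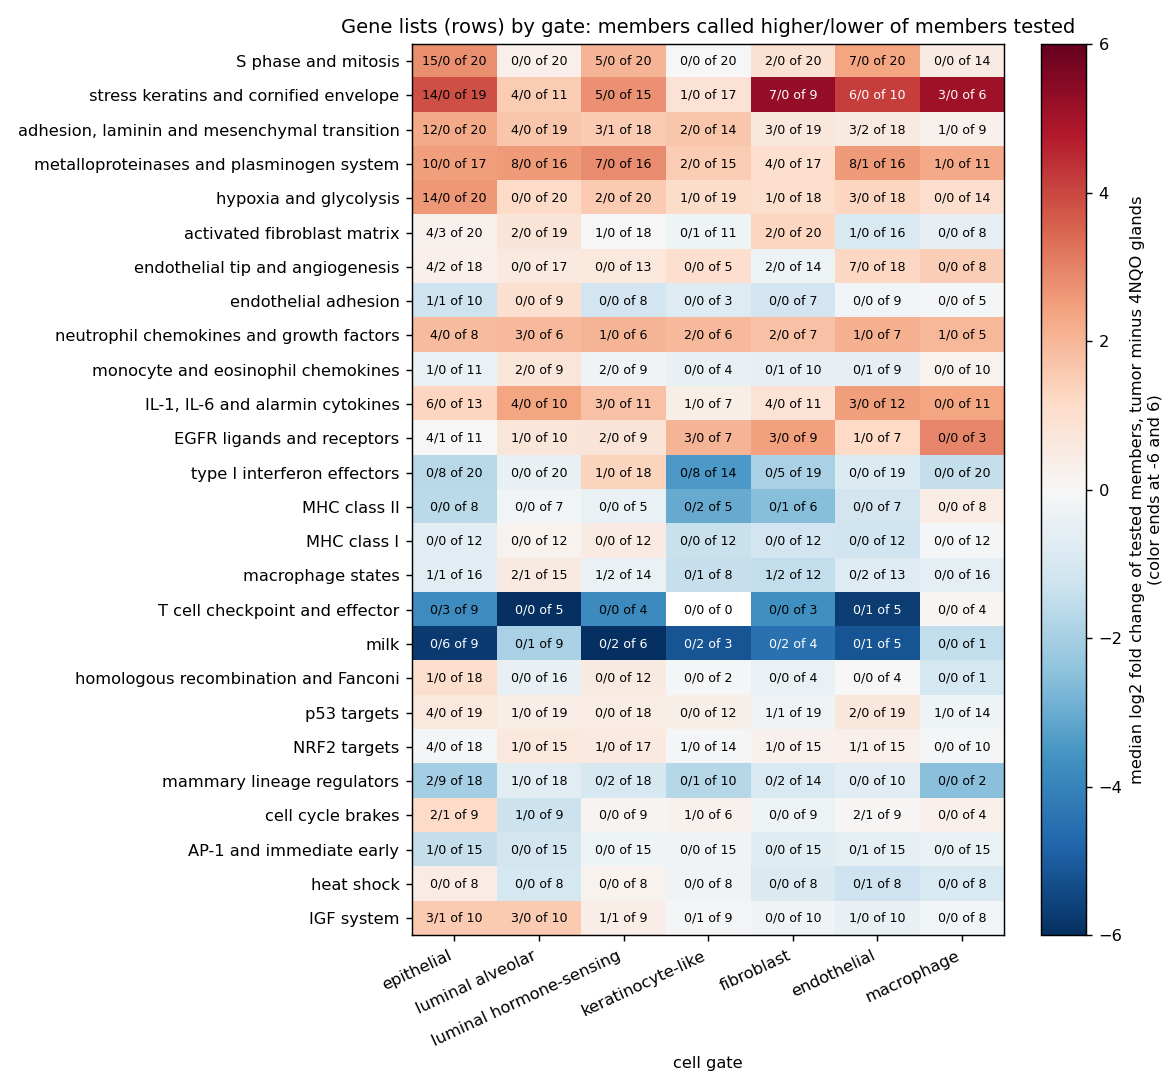
Counts of called members for all 26 gene lists in 7 gates, written as higher/lower of tested, on a color scale of the median log2 fold change (tumor minus glands). The protease row is red in the epithelial, luminal and endothelial columns, with 10, 8, 7 and 8 members higher by edgeR. DESeq2 called 7, 5, 5 and 2 of these, and without the count filter 4 of the 8 in endothelial cells were called. The interferon row has its most negative median, -3.42, in the keratinocyte-like column. Dark red for stress keratins in stromal columns rests on the 6 to 10 members that passed the count filter there.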

How the data were processed

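Single-cell libraries were counted by the authors with Cell Ranger (5.0.1, and 3.0.2 for the PK gland) per the file headers, against mm10 per the submitters' processing notes. The deposited matrices hold UMI counts for 27998 genes. Cells passing the limits above were gated by mean scaled marker score (at least 0.15, runner-up at most 0.6 of it, limits chosen after seeing the data). The marker lists of 5 compartments and 12 sub-classes, the gene lists and the comparison itself were chosen with earlier results of these data known. Doublets stayed in, and an alternative removed the cells with the highest Scrublet scores (scanpy 1.11.5).

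Summed counts were tested with edgeR 4.0.16 (quasi-likelihood test, TMM, filterByExpr, Benjamini-Hochberg over all genes) in R 4.3.3, where the tumor and both BPK 4NQO libraries held at least 30 gated cells. All 5 libraries in 4 groups entered the fit, except in the keratinocyte-like gate, where the 3 compared libraries did. The 2 BPK 4NQO libraries give 1 residual degree of freedom, so the tumor is assumed to vary as they do. In every contrast edgeR gave infinite weight to the variance trend pooled over genes. The edgeR p-values and SE thus rest on that trend and do not measure a gene's own spread between the replicates. Lars2, for example, was called in the epithelial gate with 13.3 and 745 CPM in the 2 glands. Scripts were tested on simulated data. Fold changes are tumor minus BPK 4NQO on the log2 scale. CPM uses the UMI total of the gate and library. Genes were named by rank of fold change among called genes with at least 32 CPM in the higher group and the tumor outside both replicates (12 each way for the whole library and epithelium, 6 elsewhere), leaving out markers, predicted models, Xist, Y-linked, immunoglobulin, T cell receptor, hemoglobin, mitochondrial and ribosomal genes, plus up to 4 called members of each list. Further genes were named after their values were seen. Alternatives used DESeq2 1.42.0, RLE factors, other filters, gates and library sets. Some results are not reported here.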

Additional observations from a re-analysis of the deposited data

How the results depend on the processing

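Calls fell with DESeq2 to 88 genes in alveolar cells, 82 in hormone-sensing cells, 71 in keratinocyte-like cells, 103 in fibroblasts and 165 in endothelial cells. Without the count filter they were 138 in endothelial cells and 28 in macrophages, and a stricter gate gave 76 in hormone-sensing cells. The log2 ratio of keratinocyte-like shares was 7.34 with the stricter gate and 6.14 after thinning. Of 529 single-gene calls, DESeq2 kept 373, RLE factors 522 and the fit without a count filter 461, all in the same direction, and the 3 compared libraries alone kept 508 of 528. Removing doublets kept 501 of 525, and a mitochondrial limit of 10% kept 521. The stricter gate kept 292 of 332 and reversed Ccl5 in hormone-sensing cells (-3.05, against 3.36). It left too few alveolar cells in the tumor (27) and too few keratinocyte-like cells in the glands (14 and 11) to test. Leaving out either replicate gives values without a test: Rsad2 in the whole library (-3.24 with both) ranged from -4.19 to 0.06 and Arg1 in keratinocyte-like cells (-3.64) from -4.59 to 1.00, each reversed without replicate 2. The cause was not tested. DESeq2 moved the share of higher calls from 60.0% to 49.8% in the whole library, from 79.0% to 91.5% in hormone-sensing cells and from 100% to 57.1% in macrophages. No paired analysis was possible because the tumor group has 1 library. The keratinocyte-like gate rests on 54 and 47 gland cells.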
